A study of Homo sapiens with 25 samples.

Results

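KYNU, the kynureninase gene, and 6 other genes of the kynurenine pathway (IDO1, TDO2, KMO, AFMID, HAAO and QPRT) were examined among 19970 protein-coding genes in MDA-MB-231. This is a mesenchymal human breast cancer cell line lacking hormone receptors and HER2 amplification. The 7 genes were listed by name and chosen by their promoter and gene-body peaks and their domain membership in these lists, above all the promoter peaks of KYNU in the control condition, so these values are descriptions and were not tested. The series immunoprecipitated chromatin from PML knockdown cells, in which PML was silenced with a lentiviral short hairpin RNA, and from control cells, and the sources used here do not say what the control cells received or whether the knockdown line was 1 clone. Each of H3K4me3, H3K27ac, Lamin B1 (LMNB1) and H3K9me3 had 2 knockdown and 2 control libraries, and 3 PML libraries were titled with no condition. The deposited lists give 1 list of peaks or domains per target and condition, with no value per replicate and no read depth. No difference below therefore has a replicate check. Where a list holds no peak or domain, its signal was under the authors' threshold, which is not absence of the mark, and fewer cells with a mark cannot be told apart from less of it per cell.

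Tryptophan is opened by IDO1 in many tissues and by TDO2 mainly in the liver, AFMID hydrolyses the product to kynurenine, and KMO adds a hydroxyl group. KYNU cleaves kynurenine and hydroxykynurenine to anthranilic acids, HAAO oxidises hydroxyanthranilate, and QPRT turns quinolinate into a precursor of NAD. Kynurenine is also a ligand of the aryl hydrocarbon receptor AHR, and the pathway is known in tumours for local suppression of T cells. H3K4me3 marks the start sites of active or poised genes, H3K27ac marks active promoters and enhancers, LMNB1 domains are stretches that lie at the nuclear lamina, H3K9me3 domains are heterochromatin, and PML is the scaffold of PML nuclear bodies. All 7 mesenchymal and basal markers checked (VIM, CD44, CAV1, CAV2, EGFR, AXL and MSN) had promoter peaks in all 4 peak lists. None of the 3 immune markers and none of the 3 hepatocyte markers had one in any list. Of 7 luminal markers, 5 (ESR1, AGR2, KRT8, KRT18 and FOXA1) had H3K4me3 in both lists and 4 (AGR2, KRT8, KRT18 and TFF1) had H3K27ac in both. Of 5 epithelial markers, 4 had H3K4me3 in both lists, and H3K27ac was at 3 in the knockdown list, against 2 in the control list.

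The sequences at the starts that carry the contrasts are shown first, because KYNU and KMO share a CG-poor start but not a marking pattern, and HAAO has the most CG-rich start of those read. Each is 300 bases, 5′ to 3′ on the strand of the gene, with CG dinucleotides in capitals. The promoters run from 250 bases before to 50 after the RefSeq start (GRCh38.p14), which was the same base as the GENCODE start for all 6 genes with an entry. They lie at chr2:142877414-142877713 on the plus strand (KYNU), chr1:241532128-241532427 on the plus strand (KMO) and chr2:42792534-42792833 on the minus strand (HAAO). The KMO summit window, chr1:241531587-241531886 in hg38, is centred on the H3K4me3 summit of the knockdown list.
KYNU promoter: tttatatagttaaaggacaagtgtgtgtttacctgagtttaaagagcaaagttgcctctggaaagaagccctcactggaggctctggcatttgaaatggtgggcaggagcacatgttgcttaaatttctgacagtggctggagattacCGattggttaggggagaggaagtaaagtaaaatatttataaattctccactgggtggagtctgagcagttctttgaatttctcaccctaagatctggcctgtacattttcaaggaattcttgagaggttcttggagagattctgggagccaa
KMO promoter: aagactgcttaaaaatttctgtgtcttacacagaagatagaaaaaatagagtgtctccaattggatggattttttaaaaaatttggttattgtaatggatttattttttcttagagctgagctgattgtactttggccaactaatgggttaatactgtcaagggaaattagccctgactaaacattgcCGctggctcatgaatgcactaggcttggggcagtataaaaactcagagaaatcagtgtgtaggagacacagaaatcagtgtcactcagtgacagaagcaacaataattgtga
KMO H3K4me3 summit window: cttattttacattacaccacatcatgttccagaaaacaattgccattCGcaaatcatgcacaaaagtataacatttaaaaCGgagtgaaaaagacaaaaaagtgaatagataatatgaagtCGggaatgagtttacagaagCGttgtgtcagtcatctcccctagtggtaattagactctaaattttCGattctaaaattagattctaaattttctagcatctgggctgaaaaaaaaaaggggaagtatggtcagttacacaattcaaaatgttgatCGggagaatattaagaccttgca
HAAO promoter: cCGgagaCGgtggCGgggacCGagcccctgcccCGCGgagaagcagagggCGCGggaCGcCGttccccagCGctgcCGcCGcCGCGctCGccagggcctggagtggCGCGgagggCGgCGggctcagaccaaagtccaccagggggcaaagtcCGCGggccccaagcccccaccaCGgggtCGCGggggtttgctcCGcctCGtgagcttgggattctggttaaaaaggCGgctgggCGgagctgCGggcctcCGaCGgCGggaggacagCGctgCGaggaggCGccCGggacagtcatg

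KYNU, KMO and TDO2 each held 1 CG in these 300 bases and QPRT held 3, against 25 in AFMID and 37 in HAAO. Across 15315 protein-coding promoters matched by symbol the median was 22. The median was 26 in promoters with a peak in all 4 peak lists and 6 in promoters with none, so KYNU and KMO, both marked in the control lists, had CG counts nearer to those of unmarked promoters. QPRT was poor in CG although its window was 64.0% G and C, against 42.3% in KYNU, 41.3% in TDO2 and 36.7% in KMO. The window around the KMO summit held 6 CG, against a median of 12 around H3K4me3 summits of the knockdown list. The window around the control H3K4me3 summit of KYNU, 535 bases into the gene, held 1, against a median of 15 in the control list. Both strands were searched for plain motifs. The TATA box letters TATAAA were present in 9.64% of promoters and in those of KYNU, KMO, AFMID and TDO2. They lay 29 bases before the start in KMO and 31 in AFMID, and in KYNU the nearest matches began 68 and 66 bases before the start, on opposite strands and overlapping. CCAAT was in 36.6% of promoters and in those of the same 4 genes. GGGCGG, the GC box, was in 59.2% of promoters and in those of AFMID and HAAO but not KYNU. TGANTCA, the AP-1 site, was in 5.75% of promoters and among the 6 read only in that of TDO2, and GCGTG, the core of AHR sites, was in 44.3% and among the 6 only in that of AFMID. These matches are letters in a window and not measured binding.

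**Figure D1:**
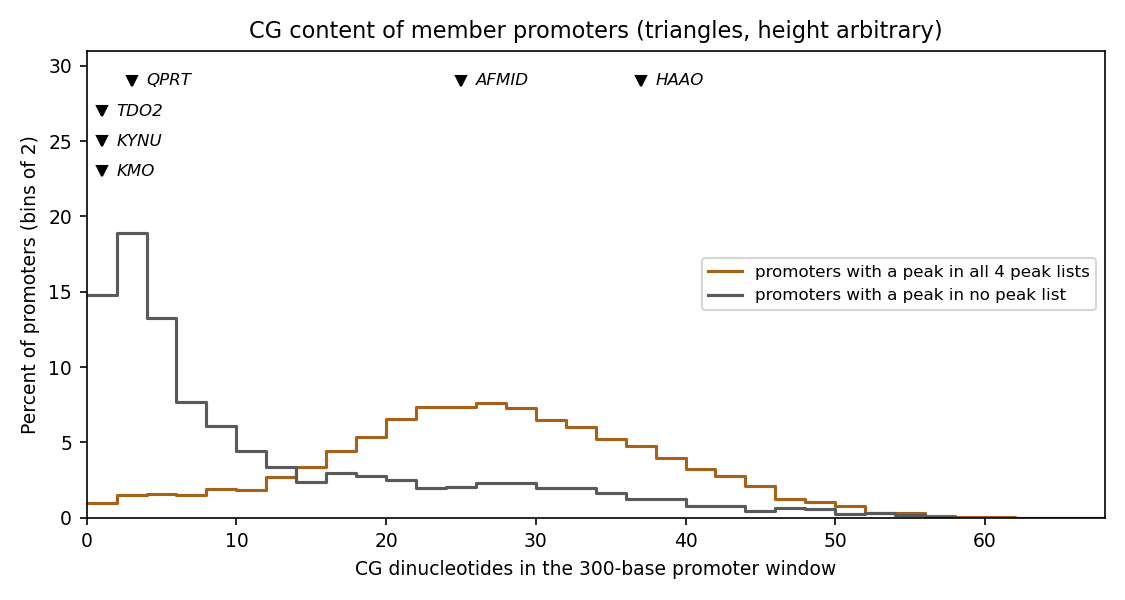
CG dinucleotides (x axis) in the 300-base promoter windows of 6 genes, shown as triangles at arbitrary height, over the distribution of promoters with a peak in all 4 peak lists (brown) and in none (grey), in percent of promoters per bin of 2 (y axis). KYNU, KMO and TDO2 sit at 1, QPRT at 3, AFMID at 25 and HAAO at 37.

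Promoter peaks placed the 7 genes in 4 patterns. H3K4me3 was called within 1 kb of the start at 3 of 7 genes in the knockdown list (KMO, AFMID and HAAO; 63.7% of all protein-coding genes) and at 4 of 7 in the control list (KYNU as well; 61.8%). H3K27ac was called at 2 of 7 in the knockdown list (KMO and AFMID; 53.7% of all genes) and at 3 of 7 in the control list (KYNU as well; 50.8%). KYNU was marked in the control lists only, KMO and AFMID in all 4 lists, HAAO by H3K4me3 alone in both conditions, and IDO1, TDO2 and QPRT in no list. Among all genes 49.1% were marked in all 4 lists, 8.84% by H3K4me3 in both lists with H3K27ac in neither, and 35.2% in no list, so these 3 patterns are common ones.

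**Figure D2:**
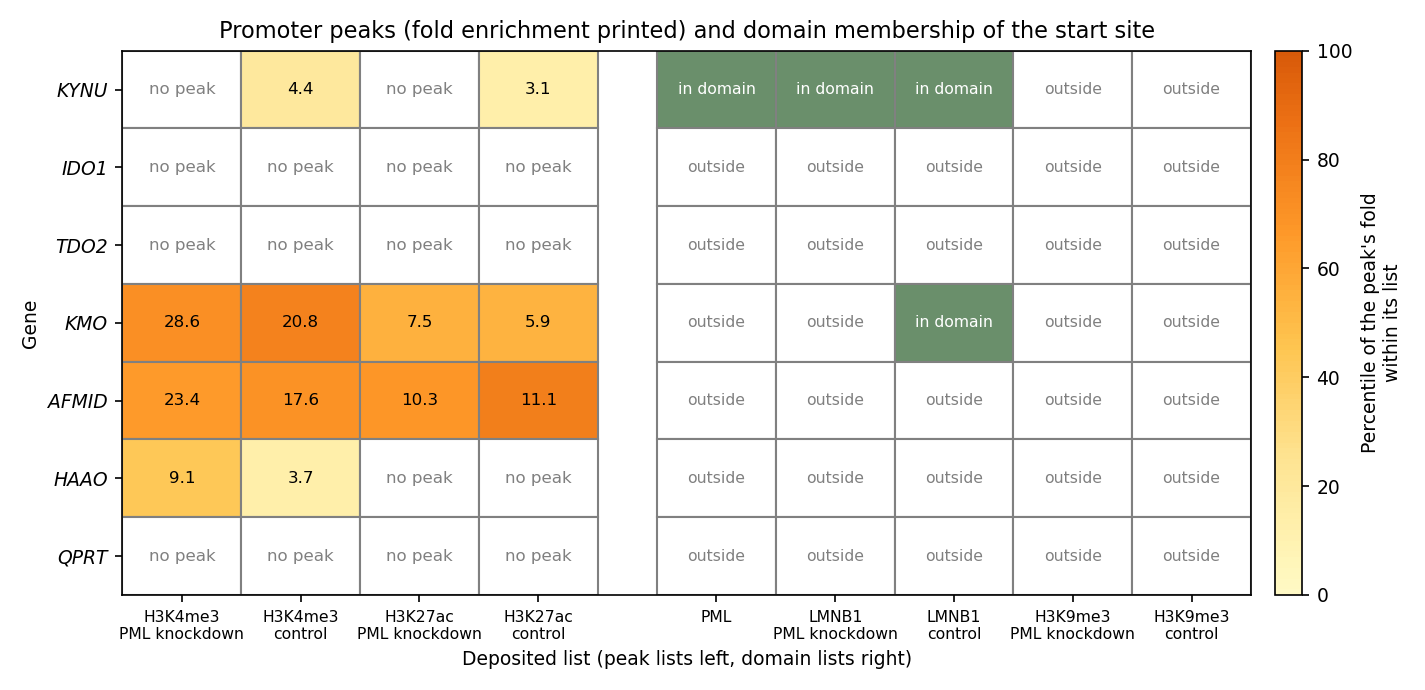
The 7 genes (rows) in the 4 peak lists and 5 domain lists (columns), with the knockdown list left of the control list of each target. Numbers are fold enrichments of promoter peaks, colour is the percentile of that fold within its own list, and green marks a start inside a domain. KYNU is the one row with peaks in control lists only, and KMO is in a control LMNB1 domain only.

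KYNU (ENSG00000115919.15, chromosome 2, 142877657 to 143055833 in hg38, plus strand) had both promoter marks in the control lists and neither in the knockdown lists. H3K4me3 had no promoter peak in the knockdown list, against a peak from 142877649 to 142878634 with a fold enrichment of 4.37 in the control list. H3K27ac had none in the knockdown list, against a peak from 142877434 to 142877857 with a fold of 3.11 in the control list. Both control peaks were weak ones. Fold enrichment is the authors' own number, used here to order the peaks of 1 list, and these folds stood at percentiles 19.2 and 13.0 of their lists, with -log10 q, the authors' measure of a peak's significance, of 5.50 and 1.99. Control-only promoter peaks were rare among all genes, at 0.0951% for H3K4me3 and 0.666% for H3K27ac. The rule that chose KYNU used these values, so no test is attached to their rarity. Only KYNU, SULT1C2, which encodes a sulfotransferase, and KLRC3, which encodes a receptor of natural killer cells, had both marks in the control lists only (3 genes, 0.0150%, named after their values were seen). In the control lists the folds of H3K4me3 and H3K27ac were 3.55 and 3.92 at SULT1C2 (percentiles 11.0 and 28.6) and 4.38 and 3.09 at KLRC3 (percentiles 19.3 and 12.6). With -log10 q of at least 5 the H3K27ac peak of KYNU was no longer called, while its H3K4me3 peak was.

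Upstream of KYNU the H3K27ac fold was higher in the knockdown list. A broad peak ran from 142872969 to 142875172 in the knockdown list, against 142872961 to 142875769 in the control list, with summits 3.49 kb and 3.53 kb before the start. Its fold was 17.4 in the knockdown list, at percentile 85.4, and 6.23 in the control list, at percentile 56.2. Since each list has its own scale of folds, the ratio was compared with those of all shared peaks. It was 2.79, the highest of the shared H3K27ac peaks in or within 20 kb of a member. This ratio stood at percentile 94.4 of those of all 39067 pairs of shared H3K27ac peaks, whose median was 1.27. A weak H3K4me3 peak lay inside this region in the knockdown list only, from 142873891 to 142874419, with a fold of 3.76 at percentile 11.4. The H3K4me3 lists held 27760 knockdown and 22211 control peaks, which formed 21962 overlapping pairs. At most 21962 knockdown peaks thus had a control counterpart, and the exact share without one was not computed. No other annotated gene started within 20 kb upstream of KYNU or inside it apart from the pseudogene SFXN4P1. With a promoter of 2500 bases on either side, the upstream H3K27ac peak of the knockdown list reached the window, and KYNU then counted as marked by H3K27ac in both lists.

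**Figure D3:**
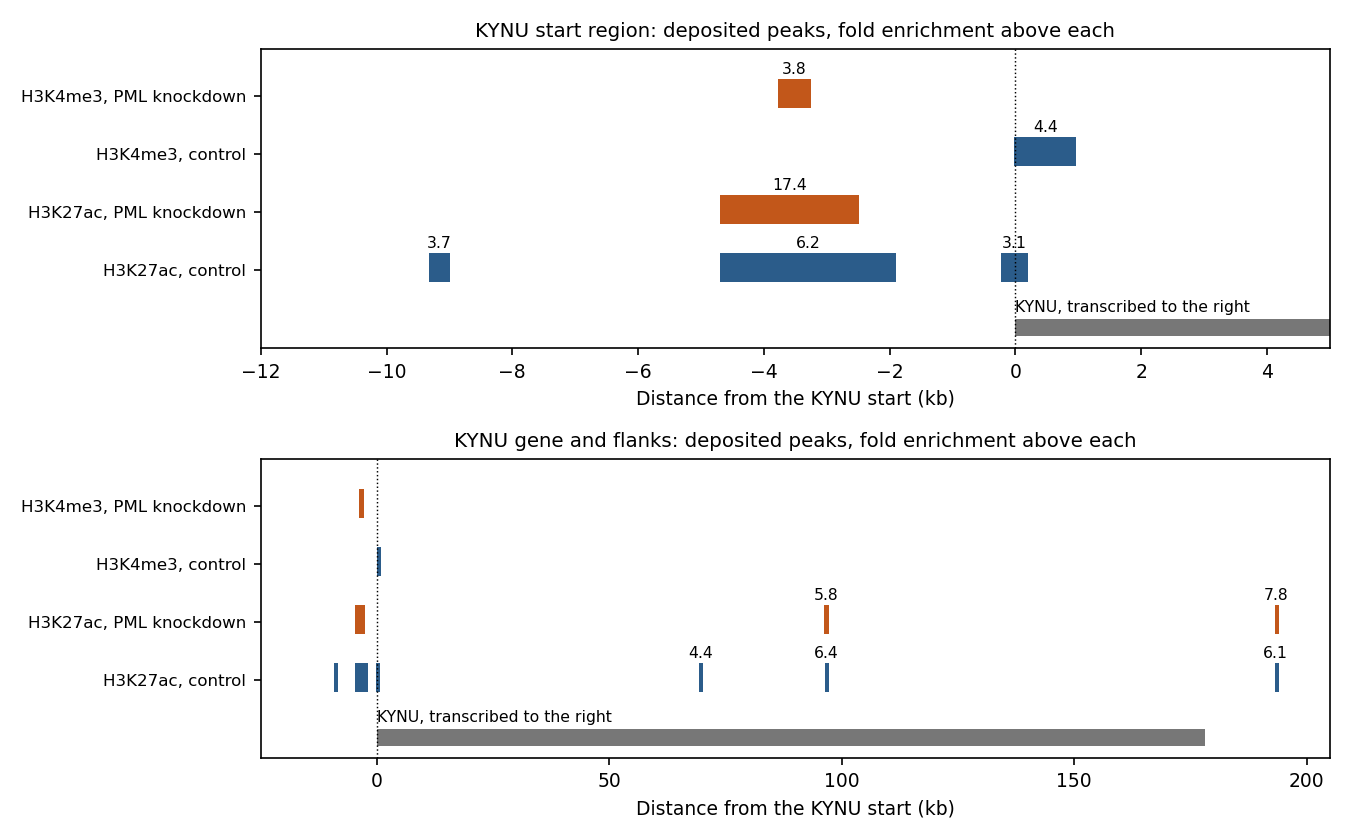
Deposited peaks around KYNU by distance from its start in kb (x axis), for the start region (top) and the whole gene with flanks (bottom), one row per list, with fold enrichment printed above peaks. At the start only the control lists (blue) hold peaks, and 3.53 kb upstream the H3K27ac peak has a fold of 17.4 in the knockdown list (orange) and 6.23 in the control list.

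Inside KYNU beyond the promoter, the knockdown list held 1 H3K27ac peak, against 2 in the control list. Intron 8 held a peak in both lists, with summits 96.6 kb into the gene. Its folds were 5.81 in the knockdown list, against 6.37 in the control list, a ratio of 0.912 at percentile 18.6. Intron 4 held a peak in the control list only, from 142946921 to 142947600 with a fold of 4.40, which partly overlaps the processed pseudogene SFXN4P1. Its -log10 q was 4.72, against 7.70 and 12.3 for the intron 8 peaks of the knockdown and control lists. With -log10 q of at least 5, only the intron 8 peak was left inside KYNU in either H3K27ac list. A peak 9.18 kb before the start was in the control list only, with a fold of 3.70 and a -log10 q of 4.14. Beyond the end of the gene, 193 kb from its start, a peak was shared, with folds of 7.75 in the knockdown list, against 6.12 in the control list. Across the locus the control list thus held 3 H3K27ac peaks with no knockdown counterpart (start, intron 4 and 9.18 kb upstream), all with folds under the list's median of 5.54. The peak at the start was among the values that chose KYNU. The share of all 42320 control H3K27ac peaks that lacked a counterpart was not computed, so the 3 peaks have no exact baseline here. The H3K27ac lists formed 39067 overlapping pairs, so at most that many control peaks had a counterpart.

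KMO (ENSG00000117009.12, chromosome 1, 241532134 to 241595642, plus strand), the kynurenine hydroxylase, was marked in every list. Its H3K4me3 promoter peak had a fold of 28.6 in the knockdown list, at percentile 71.9, and 20.8 in the control list, at percentile 77.8. Its H3K27ac promoter peak had a fold of 7.47 in the knockdown list, against 5.94 in the control list, at percentiles 55.1 and 53.7. The H3K4me3 summits lay 641 and 677 bases before the start in the knockdown and control lists, outside the CG-poor promoter window, and the peaks reached 141 and 144 bases past the start. The ratio of the H3K4me3 folds was 1.38, under the median of 1.85 for shared peaks, and that of H3K27ac was 1.26, at percentile 48.9. The last exon, exon 15, held an H3K27ac peak in both lists, with folds of 4.33 in the knockdown list, against 4.58 in the control list.

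AFMID (ENSG00000183077.16, chromosome 17, 78187358 to 78207702, plus strand), the formamidase, was marked in every list as well. H3K4me3 had a fold of 23.4 in the knockdown list, against 17.6 in the control list, and H3K27ac 10.3 in the knockdown list, against 11.1 in the control list. Both ratios, 1.33 and 0.925, were in the lower part of those of shared peaks, at percentile 19.6 for each mark. TK1, the thymidine kinase gene of dividing cells, starts 310 bases upstream, inside all 4 of these peaks, whose summits lay 420 to 432 bases before the AFMID start. The marks of AFMID and TK1 cannot be told apart in these lists.

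HAAO (ENSG00000162882.15, chromosome 2, 42767089 to 42792593, minus strand), the dioxygenase after KYNU, carried H3K4me3 without H3K27ac. Its promoter peak had a fold of 9.14 and a width of 1141 bases in the knockdown list, at percentile 43.6. In the control list it had a fold of 3.72 and a width of 459 bases, at percentile 12.7. The ratio of 2.46 stood at percentile 74.1 of shared H3K4me3 peaks, whose median ratio was 1.85 over 21962 pairs, and it lay between their 5th and 95th percentiles, 0.957 and 4.43. The knockdown peak spanned the start, while the control peak lay wholly inside the gene, beginning 59 bases after the start. Their summits lay 227 and 282 bases into the gene, in windows with 9 and 7 CG. About 17 to 18 kb upstream, a pair of sites carried both marks in both conditions. H3K4me3 folds there were 17.3 and 5.61 in the knockdown list and 10.6 and 3.77 in the control list, with H3K27ac folds of 6.97 and 7.21 in the knockdown list and 5.63 and 5.13 in the control list.

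**Figure D4:**
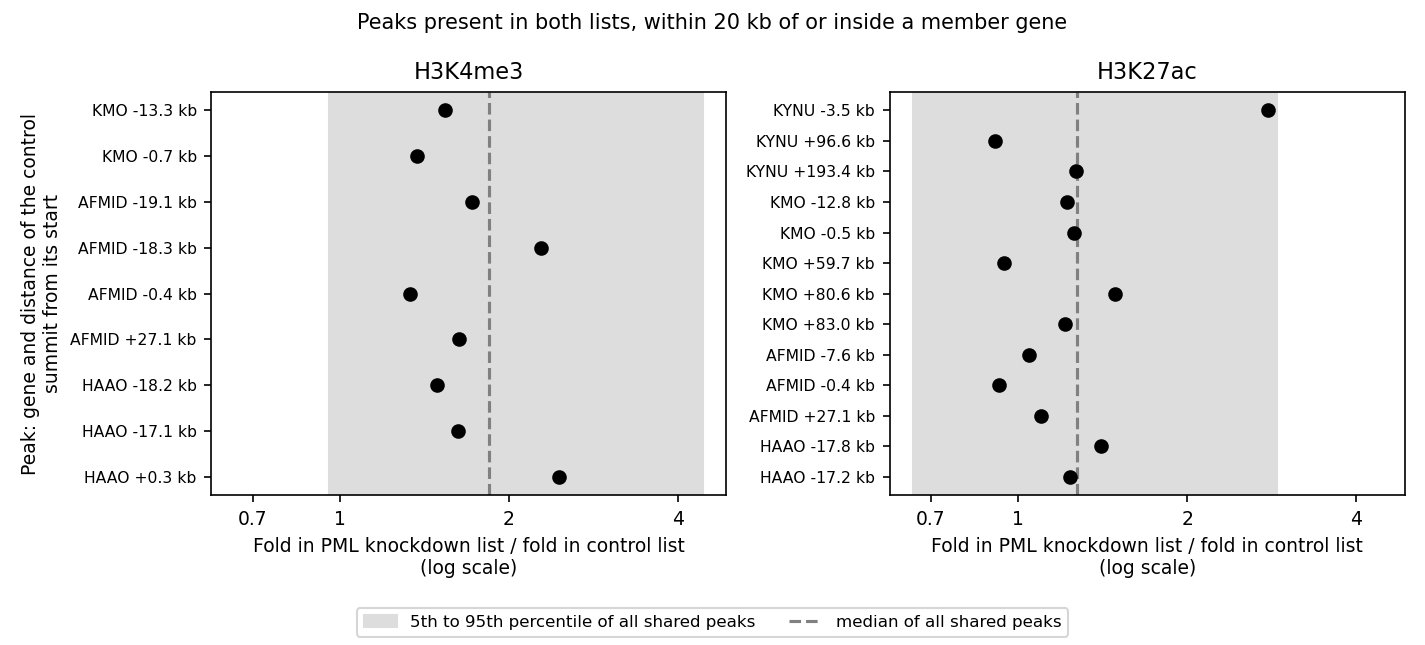
Ratio of fold enrichment in the knockdown list to that in the control list (x axis, log scale) for peaks shared by both lists in or within 20 kb of a member, named by gene and by distance of the control summit from its start (y axis), for H3K4me3 (left) and H3K27ac (right). Grey bands span the 5th to 95th percentile of all shared peaks and dashed lines their medians of 1.85 and 1.27; the peak upstream of KYNU, at 2.79, lies nearest to an edge.

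IDO1, TDO2 and QPRT, the first and last enzymes of the route, had no promoter peak in any list. IDO1 (ENSG00000131203.13, chromosome 8, 39902275 to 39928790) lay farther from an H3K4me3 peak than any other member. Its nearest H3K4me3 peak was 284 kb from the start in both lists, and its nearest H3K27ac peak was 145 kb away in the knockdown list, against 53.5 kb in the control list. QPRT (ENSG00000103485.19, chromosome 16, 29663279 to 29698699) had its nearest peak of either mark about 66 kb from the start in every list. TDO2 (ENSG00000151790.9, chromosome 4, 155854738 to 155920406) had weak peaks in the control lists only. A control H3K4me3 peak with a fold of 5.22, from 155854784 to 155855138, began 13 bases after an annotated upstream start of the gene, with its summit 48.8 kb before the canonical start. A control H3K27ac peak with a fold of 3.39 lay in intron 3, 3.21 kb after the canonical start. With every annotated start counted, TDO2 therefore joined KYNU as marked by H3K4me3 and by H3K27ac in the control lists only, at percentiles 26.2 and 18.3 of those lists. Unlike at KYNU, the marks were at different starts of TDO2. The H3K4me3 peak was near the start at 155854771, and the H3K27ac peak was 991 bases from the start at 155905820. The share of all genes in this state with every start counted was not computed.

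Gene bodies outside promoters held few peaks. H3K4me3 was called in no member's body in the knockdown list (28.1% of all genes) and in TDO2 in the control list (21.1%). H3K27ac was called in the bodies of KYNU and KMO in the knockdown list (38.9% of all genes), as 2 peaks, and of KYNU, TDO2 and KMO in the control list (36.6%), as 4 peaks.

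KYNU was the one member that started in a PML domain (13.1% of all genes do). That domain ran from 136449001 to 147618000 on chromosome 2, spanned 11.2 Mb and was number 14 in length of 420, with the KYNU start 4.74 Mb from its nearer border. KYNU also lay in an LMNB1 domain in both conditions, of 11.6 Mb in the knockdown list, against 11.4 Mb in the control list, both of which contained the whole PML domain. The LMNB1 domain was thus called in knockdown cells, where the promoter peaks of KYNU were not. H3K9me3 covered 3.59% of the PML domain in the knockdown list, against 5.24% in the control list, all at its upstream end. The whole H3K9me3 list was also smaller in knockdown, with 281 domains over 361 Mb, against 430 domains over 629 Mb in control. The nearest H3K9me3 domain was 6.03 Mb from the KYNU start in the knockdown list, against 5.84 Mb in the control list. No member started in an H3K9me3 domain in either list (8.60% of all genes in the knockdown list, against 10.0% in the control list).

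In the LMNB1 lists 1 of 7 members, KYNU, started in a knockdown domain (11.0% of all genes) and 2 of 7, KYNU and KMO, in a control domain (12.4%). KMO started in a control LMNB1 domain from 240839001 to 241842000 on chromosome 1, of which no base was in a knockdown domain. In all, 2.05% of genes started in an LMNB1 domain of the control list only, and 0.661%, with no member among them, in one of the knockdown list only. Of the control list, 60 of 410 LMNB1 domains (14.6%) had no overlap with a knockdown domain. The KMO domain was 1.00 Mb long and its score of 27.7 ranked 315 of 410, below the list's median of 52.8. It held 6 gene starts, among them FH, which encodes fumarate hydratase, OPN3 and CHML. FH, KMO, OPN3 and CHML carried H3K4me3 and H3K27ac within 1 kb of the start under both conditions. RGS7, in the same domain, had H3K4me3 in the knockdown list only. The other 5 members lay outside every domain. IDO1 started 52.9 kb from a PML domain, TDO2 606 kb from an LMNB1 domain of the knockdown list and 6.50 Mb from one of the control list, and AFMID 207 kb and 194 kb from H3K9me3 domains of the knockdown and control lists.

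**Figure D5:**
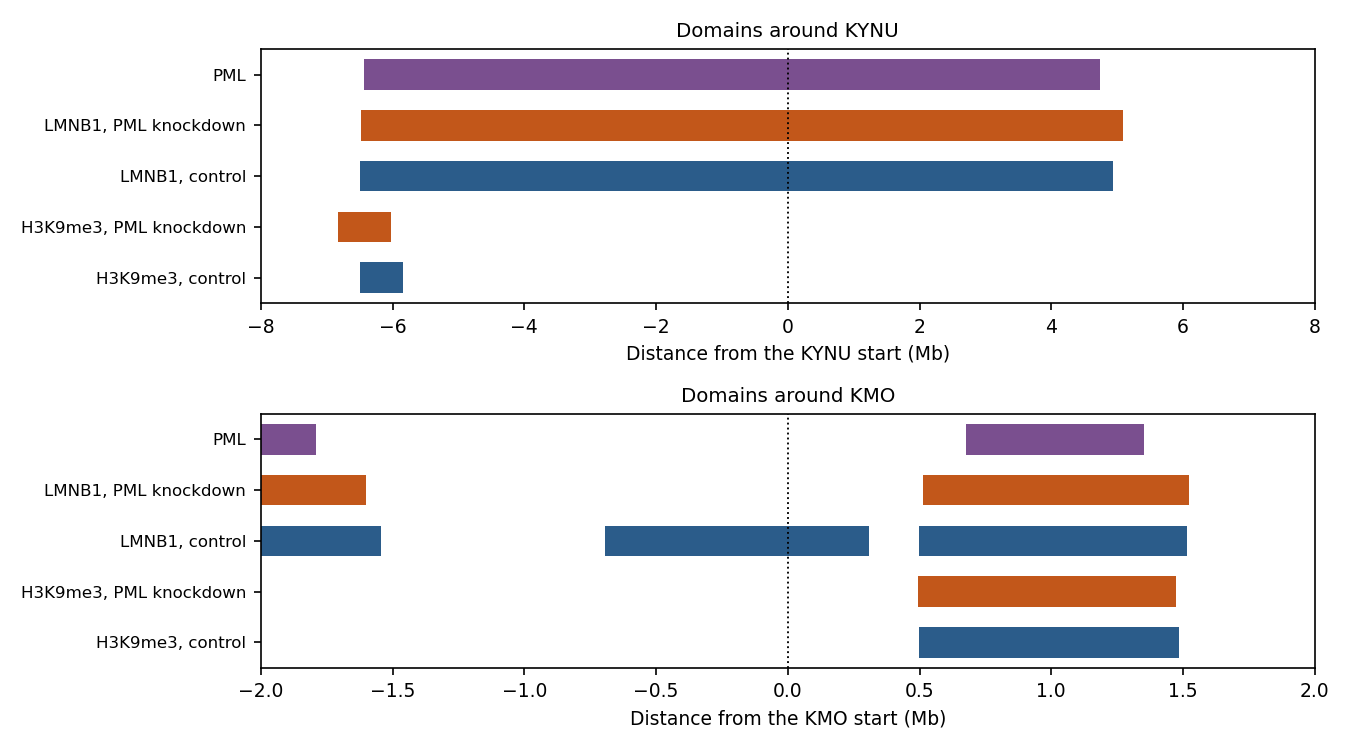
Domains around the KYNU start (top) and the KMO start (bottom) by distance in Mb (x axis), one row per list, with knockdown lists (orange) above control lists (blue) and PML in purple. KYNU sits 4.74 Mb or more inside PML and LMNB1 domains in every such list, and the 1.00 Mb LMNB1 domain over KMO is in the control list only.

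The PML domain of KYNU held 9 gene starts. H3K4me3 marked 5 of them in the knockdown list, against 6 in the control list, with KYNU the difference. H3K27ac marked 4 in the knockdown list, against 6 in the control list, the difference being KYNU and ZEB2, which encodes a repressor that drives epithelial-mesenchymal transition. ZEB2, 1642 kb downstream, had no H3K27ac promoter peak in the knockdown list, against a fold of 4.87 in the control list, but its H3K4me3 peak was called in both, with folds of 24.7 in the knockdown list, against 12.7 in the control list. Of the other nearest neighbours, SPOPL, LRP1B and GTDC1 had both marks in both conditions, and NXPH2 and ARHGAP15 had neither. Across all PML domains, 8 of 2612 genes (0.306%) had H3K4me3 in the control list only, against 11 of 17358 genes outside them (0.0634%). For H3K27ac in the control list only, the counts were 28 inside (1.07%) and 105 outside (0.605%). Knockdown-only peaks were at 1.07% inside against 1.90% outside for H3K4me3, and at 1.57% against 3.49% for H3K27ac. These are shares of all genes, and fewer genes inside were marked at all. H3K4me3 promoter peaks of the knockdown list were at 43.5% inside against 66.8% outside, and H3K27ac peaks at 35.6% against 56.4%. Of the genes so marked by H3K4me3, 28 of 1135 inside and 329 of 11590 outside were knockdown-only. For H3K27ac these were 41 of 930 and 606 of 9788. KYNU itself contributes to the control-only counts, and it was chosen on these states. No test was run.

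No other gene had the same 9 states as KYNU (promoter peak in 4 lists, start in 5 domain lists), and 18 genes differed from it in 1 state. These states are the readouts by which KYNU was chosen, so its standing alone on them restates that choice. How many genes have a pattern of their own was not computed. Among the 18 genes, ESRRG, CDH12 and SLITRK6 had the control-only H3K4me3 peak without H3K27ac, HYAL4 had the control-only H3K27ac peak without H3K4me3, and the rest, ZEB2 among them, had H3K4me3 in both lists. Of 36 other genes of tryptophan and kynurenine biology, 28 had an H3K4me3 promoter peak in the knockdown list (63.7% of all genes), against 27 in the control list (61.8%). H3K27ac was called at 23 in the knockdown list (53.7% of all genes), against 21 in the control list (50.8%). All 4 kynurenine aminotransferases (KYAT1, KYAT3, AADAT and GOT2), which divert kynurenine to kynurenic acid, were marked in all 4 lists, as were 49.1% of all genes. IDO2 and IL4I1, which also attack tryptophan, had no promoter peak in any list, like IDO1 and TDO2. IL4I1 did hold 1 gene-body peak in each of the 4 lists. None of the 36 had a mark of H3K4me3 in the control list only, a state that 0.0951% of all genes had.

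Of the 36 genes, 1 had H3K4me3 in the knockdown list only, 3 had H3K27ac in the knockdown list only and 1 in the control list only. AHRR, the repressor of AHR, had H3K4me3 in the knockdown list only, with a fold of 4.04 (1.79% of all genes had such a peak). TIPARP, a target gene of AHR, had H3K27ac in the control list only (0.666% of all genes), with a fold of 3.83. Its stronger H3K4me3 promoter peak stood at percentile 16.1 of folds in the knockdown list, against percentile 59.1 in the control list. NMNAT2 and NAPRT, enzymes of NAD synthesis, and IFNGR2, a subunit of the interferon-gamma receptor, had H3K27ac in the knockdown list only (3.24% of all genes), with folds of 2.48, 2.97 and 2.45. These 3 folds stood at percentiles 2.52, 6.39 and 2.35 of their list. AHR itself had both marks in both conditions, with H3K4me3 folds of 40.4 in the knockdown list, at percentile 82.4, and 39.4 in the control list, at percentile 97.0. AHR, NNMT, which methylates nicotinamide, and TPH2, the tryptophan hydroxylase of serotonin synthesis in neurons, started in PML domains (3 of 36, and 13.1% of all genes). AHR and DDC, the decarboxylase of serotonin synthesis, started in an LMNB1 domain of the control list and not of the knockdown list (2 of 36, and 2.05% of all genes), and TPH2 and NMNAT3 in one of both. DDC was in an H3K9me3 domain in the control list only (4.80% of all genes), NADSYN1 and GPR35 were in one in the knockdown list only (3.41% of all genes), and NMNAT3 was in one in both.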

How the data were processed

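Cells were crosslinked with formaldehyde and disuccinimidyl glutarate before immunoprecipitation and sequencing, per the labels' protocols. The submitters' processing notes name deepTools, MACS2 2.2.7.1, Picard 1.104, BWA 0.7.12-r1039 and hg38 without roles. Names of the deposited peaks show that replicates 1 and 2 were pooled for calling. These lists give a fold enrichment, a ratio, and a -log10 q-value per peak, as deposited by the authors. The deposited domain lists give 1 score per domain with no unit, and the caller, EDD, is named only in file names. The marks ct and pml of the peak files were read as control and PML knockdown, and LMNB1 and H3K9me3 files without a condition as control. Of all listed intervals, 2 run past the end of their hg38 chromosome. Read depth is unknown, so no counting error could be given. Libraries of H3K27me3 and input were not used here.

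GENCODE 44 gave the protein-coding genes (chromosomes 1 to 22 and X), a promoter was 1000 bases on either side of the Ensembl canonical start, and an overlap of 1 base counted. A gene was marked in 1 list only when no promoter peak of it overlapped any peak of the other list. Percentiles rank folds within a list. Sequences were RefSeq promoters or hg38, and 1 further motif and 1 sequence window that were examined are not reported here. Python 3.11.15, pandas 2.3.3, numpy 2.4.6 and matplotlib 3.10.9 were used, and overlaps were tested on simulated intervals against bedtools 2.31.1. No statistical test was run, since each list pools its replicates and members and lists were chosen with earlier results of these data known. Named were all members, the 3 nearest genes on either side of KYNU, genes with the states of KYNU, and up to 4 genes per pathway list that differed between conditions or lay in a domain; NNMT, the genes beside KMO, those sharing all but 1 state with KYNU and those with both marks in the control lists only were named after their values were seen. Alternatives were promoters of 500 or 2500 bases, any annotated start, -log10 q of at least 5, equal-sized lists, summits in place of overlaps, domains of at least 500 kb or joined within 100 kb, and 50% of gene length in a domain.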

Additional observations from a re-analysis of the deposited data

How the results depend on the processing

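Of 84 recomputed counts of members and pathway genes, 82 stayed within 1.5 times their first value. The exceptions were gene-body H3K27ac peaks of the members at -log10 q of at least 5, which numbered 1 in knockdown and 2 in control cells, where all peaks gave 2 and 4, since weaker peaks were removed. The peaks left were that of KYNU intron 8 in both lists and that of KMO in the control list only. Of 308 recomputed states of single members, 4 differed: the H3K27ac promoter peak of KYNU in the control list at -log10 q of at least 5 and in the knockdown list with 2500 bases around the start, and both control marks of TDO2 with any annotated start. With equal-sized lists or summits in place of overlaps, the members marked were the ones given above. Domain membership of all members was the same under each alternative. No paired analysis was possible because the lists pool replicates. For the same reason no replicate could be left out, and the unknown depth means that a missing weak peak, such as those at the KYNU start, cannot be told apart from one just under the threshold.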
